A study of Mus musculus with 8 samples.

Results

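Mesenchyme genes outside the collagens are described here across a hybrid mouse embryonic stem cell series: Dcn, Lum, Bgn, Fn1, Fap, Thy1, Pdgfra, Pdgfrb, Twist1 and Twist2. They were chosen by symbol and are 10 of the 24421 genes counted in each library. All 10 were found and all passed the filter on low counts. The cells were a CAST/Ei x 129/Sv/Jae hybrid line, so that many reads can be given to a parental genome. The groups were HNRNPK 6A mutant cells at day 14, WT cells at day 14, HNRNPK 6A mutant cells at day 0 and WT cells at day 0, with 2 libraries each. HNRNPK is an RNA-binding protein, and which residues 6A replaces is not stated in the sources used here. Day 0 cells had grown with LIF over a layer of irradiated MEF feeders (mouse embryonic fibroblasts) that was taken away at harvest. Day 14 cells had gone without LIF, as embryoid bodies in suspension for 4 days and attached to gelatin from day 5. The series text speaks of day 7, and the sample titles, cell types and protocol of day 14, which is used here. The labels do not say how many clones or separate differentiations the libraries stand for, so p-values measure the spread between these samples.

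The small leucine-rich proteoglycans decorin, biglycan and lumican coat collagen fibrils and tune growth factor signals in connective tissue. Fibronectin is laid down by mesenchymal cells as a fibrillar matrix that integrins grip. PDGF receptors drive the growth and movement of mesenchymal and mural cells, and the Twist proteins are basic helix-loop-helix factors that bind E-box DNA and help make and keep mesenchyme. Several of these genes are also used elsewhere: Thy1 by neurons, Pdgfra and Fn1 by endoderm, and Pdgfrb by mural cells. Fibroblasts, such as the feeders, make most of them.

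Libraries held 8146684 to 15540163 counts, of which 29.1% to 31.6% were given to an allele. A floor of 3 counts corresponds to 0.193 to 0.368 CPM (counts scaled to the library total) in a single library. Levels below are CPM with TMM scaling, and differences are edgeR log2 fold changes ± SE with Benjamini-Hochberg adjusted p over 15458 genes, called at an adjusted p under 0.05. Hnrnpk had 348 and 385 CPM in 6A cells and 495 and 474 CPM in WT cells at day 14, and was called lower at both days. Day 14 cultures had lost most of the pluripotency RNA. The day 14 sum of 10 markers was 727 and 735 CPM in 6A and 562 and 535 CPM in WT. At day 0 this sum was 5436 to 5705 CPM. At day 14, 5 of the 10 markers were called higher in 6A, where 5.33% of all genes tested were. The feeder marker was the sum of 6 Y-linked genes, of which 5 were at 0 counts in 6A and 6 in WT at day 14. It marks feeders only if the line lacks a Y, which was expected but not tested. Usp9y and Zfy1 were at 0 counts in both genotypes at day 0 too, so the sum rests on the other genes. At day 14 the Y-linked sum was 0.0966 and 0 CPM in 6A and 0 in both WT libraries, whereas at day 0 it was 43.4 and 46.9 CPM in 6A and 28.3 and 28.2 CPM in WT. In bulk RNA, fewer cells of a type and less RNA per cell cannot be told apart.

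At day 14, 6A cultures held more decorin RNA and less biglycan, Fap and Twist1 RNA than WT cultures. Of the 10 genes, 1 was called higher and 3 lower, where 13.6% of all genes tested were called, 5.33% higher and 8.31% lower. The median log2 fold change of the 10 was -0.10, against 0.00 over all genes tested. The proteoglycans thus did not move one way, and lumican, fibronectin, both PDGF receptors and Twist2 were not called.

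**Figure D1:**
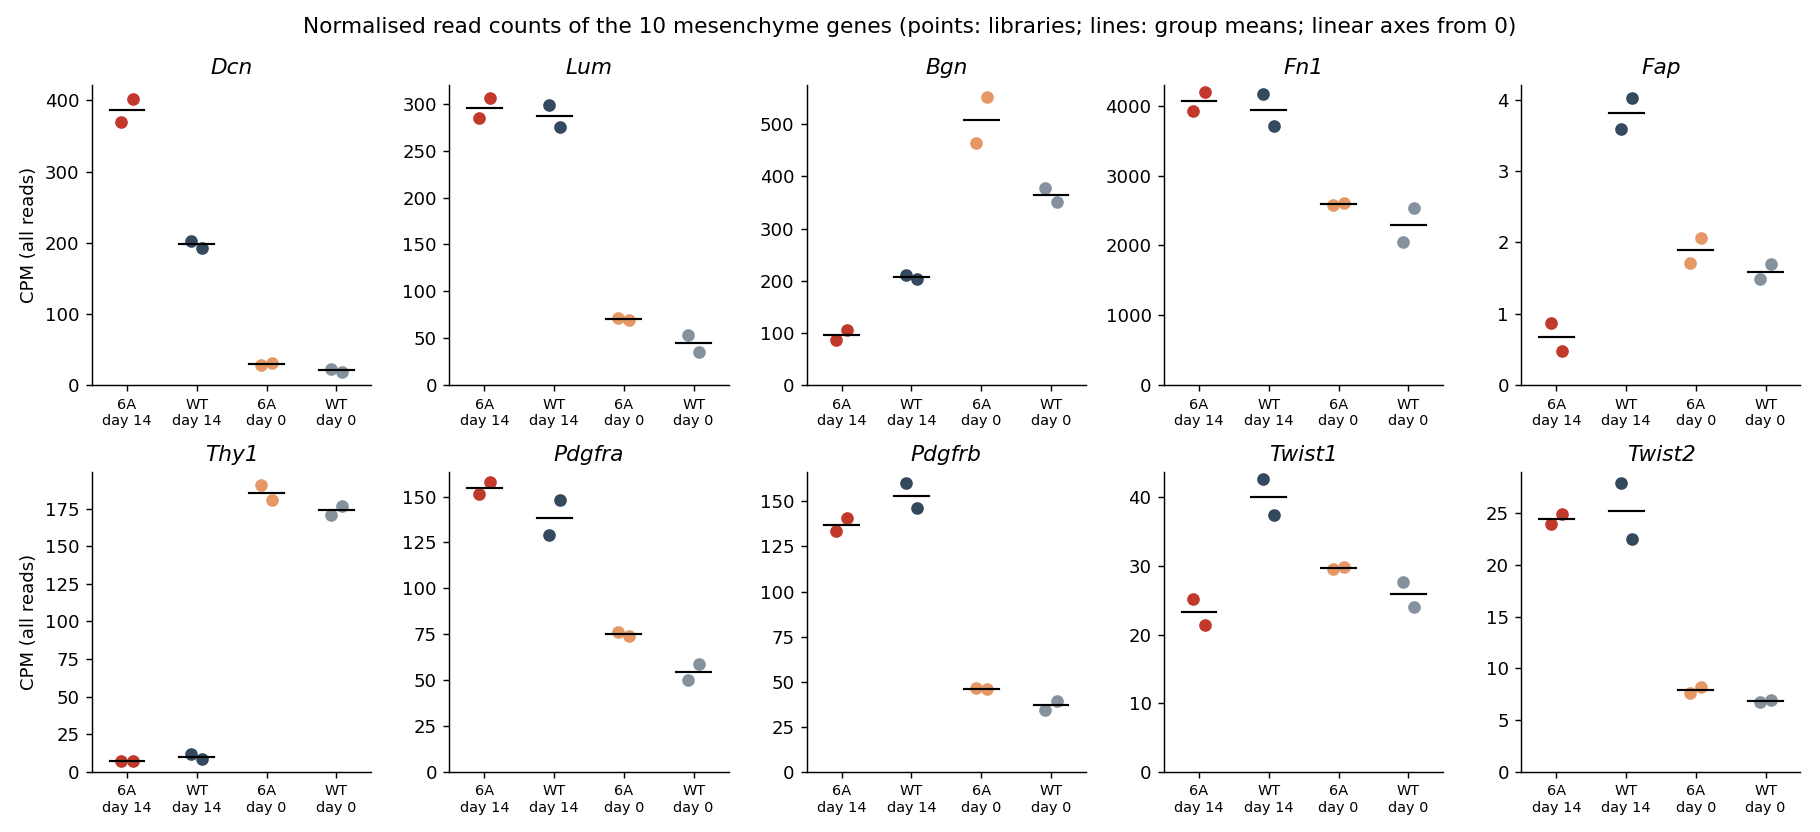
Level of each of the 10 genes in CPM (linear axes from 0) in every library, with 1 point per library and a line at the group mean, 6A and WT at day 14 and at day 0. Dcn and Lum stand higher at day 14 than at day 0, Thy1 and Bgn lower, and Fap stays below 5 CPM in every library.

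Dcn encodes decorin, which binds collagen fibrils and TGF-beta. It lies on chromosome 10 (mm10, chr10:97479609-97518143, plus strand). At day 14 it had 369 and 403 CPM in 6A and 202 and 193 CPM in WT. At day 0 it had 28.8 and 31.1 CPM in 6A and 22.6 and 18.4 CPM in WT. Both 6A libraries thus stood above both WT libraries at each day, and day 14 stood well above day 0. The day 14 difference was 0.97 ± 0.12 (edgeR adjusted p = 0.000111). At day 0 it was 0.56 ± 0.13 and was not called (edgeR adjusted p = 0.0554).

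Lum encodes lumican, a keratan sulfate proteoglycan of collagen fibrils, and begins 46985 bases after the end of Dcn on the same strand (chr10:97565128-97572703). It had 285 and 307 CPM in 6A and 299 and 275 CPM in WT at day 14, so the groups overlapped. At day 0 it had 71.7 and 69.5 CPM in 6A and 53.6 and 35.4 CPM in WT. The neighbours on chromosome 10 therefore differed in the day 14 comparison, with Lum at 0.04 ± 0.15 (edgeR adjusted p = 0.894). At day 0 Lum was 0.68 ± 0.16 and not called (edgeR adjusted p = 0.0532).

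Bgn encodes biglycan, the proteoglycan closest to decorin in structure, and is X-linked (chrX:73483602-73495933, plus strand). It had 86.0 and 105 CPM in 6A and 211 and 203 CPM in WT at day 14. At day 0 the levels were 464 and 552 CPM in 6A and 377 and 351 CPM in WT. In all reads the order of the libraries thus turned round between the days, though the day 0 difference was not called. The difference was -1.11 ± 0.13 at day 14 (edgeR adjusted p = 7.7e-05), a 2.17-fold lower level, and 0.48 ± 0.13 at day 0 (edgeR adjusted p = 0.0785). In reads given to CAST, the day 0 difference was 0.25 ± 0.31 and not called either.

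Fn1, fibronectin, was the highest of the genes per kilobase of exon in every group (chr1:71585520-71653200, minus strand). It had 3932 and 4193 CPM in 6A and 4165 and 3712 CPM in WT at day 14, and 2574 and 2602 CPM in 6A and 2046 and 2543 CPM in WT at day 0. The day 14 groups overlapped, and the difference of 0.04 ± 0.13 was not called (edgeR adjusted p = 0.872).

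Fap encodes fibroblast activation protein, a membrane serine protease of activated fibroblasts and a relative of Dpp4. It lies on chromosome 2 (chr2:62500943-62574075, minus strand). It rested on few reads: 9 and 5 counts in 6A and 31 and 51 counts in WT at day 14, or 0.869 and 0.483 CPM in 6A and 3.59 and 4.03 CPM in WT. At day 0 it had 1.71 and 2.07 CPM in 6A and 1.48 and 1.70 CPM in WT. Fap was 5.60-fold lower in 6A at day 14, the largest fold of the 10 genes in that comparison, at -2.49 ± 0.39 (edgeR adjusted p = 0.000685).

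Thy1 encodes a lipid-anchored surface glycoprotein of fibroblasts, neurons and T cells (chr9:44043384-44048579, plus strand). It had 7.15 and 7.43 CPM in 6A and 11.8 and 8.30 CPM in WT at day 14, against 190.4 and 181 CPM in 6A and 171 and 177 CPM in WT at day 0. The fall with differentiation was thus far larger than any distance between genotypes. The day 14 difference of -0.44 ± 0.18 was not called (edgeR adjusted p = 0.132), and it passed the threshold when WT replicate 2 was left out, at -0.70.

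Pdgfra is the receptor for PDGF-A and PDGF-C among other ligands (chr5:75152292-75198215, plus strand). It had 151 and 158 CPM in 6A and 129 and 148 CPM in WT at day 14, and 76.0 and 73.8 CPM in 6A and 50.1 and 58.9 CPM in WT at day 0. Pdgfrb, the receptor for PDGF-B, had 133 and 141 CPM in 6A and 160.2 and 146 CPM in WT at day 14, and 46.4 and 45.7 CPM in 6A and 34.6 and 39.5 CPM in WT at day 0. At day 14 the receptors lay on opposite sides of WT by small amounts, 0.16 ± 0.12 for Pdgfra and -0.16 ± 0.11 for Pdgfrb, and neither was called.

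Twist1 (chr12:33957671-33959829, plus strand) had 25.2 and 21.3 CPM in 6A and 42.7 and 37.5 CPM in WT at day 14, and 29.6 and 29.9 CPM in 6A and 27.6 and 24.1 CPM in WT at day 0. Twist2 (chr1:91801461-91848028, plus strand) had 23.95 and 24.9 CPM in 6A and 27.9 and 22.5 CPM in WT at day 14, and 7.61 and 8.21 CPM in 6A and 6.79 and 6.92 CPM in WT at day 0. The paralogs thus parted at day 14: Twist1 was -0.78 ± 0.15 (edgeR adjusted p = 0.00263), while Twist2 was -0.04 ± 0.16 (edgeR adjusted p = 0.915). The difference between the paralogs was not tested.

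**Figure D2:**
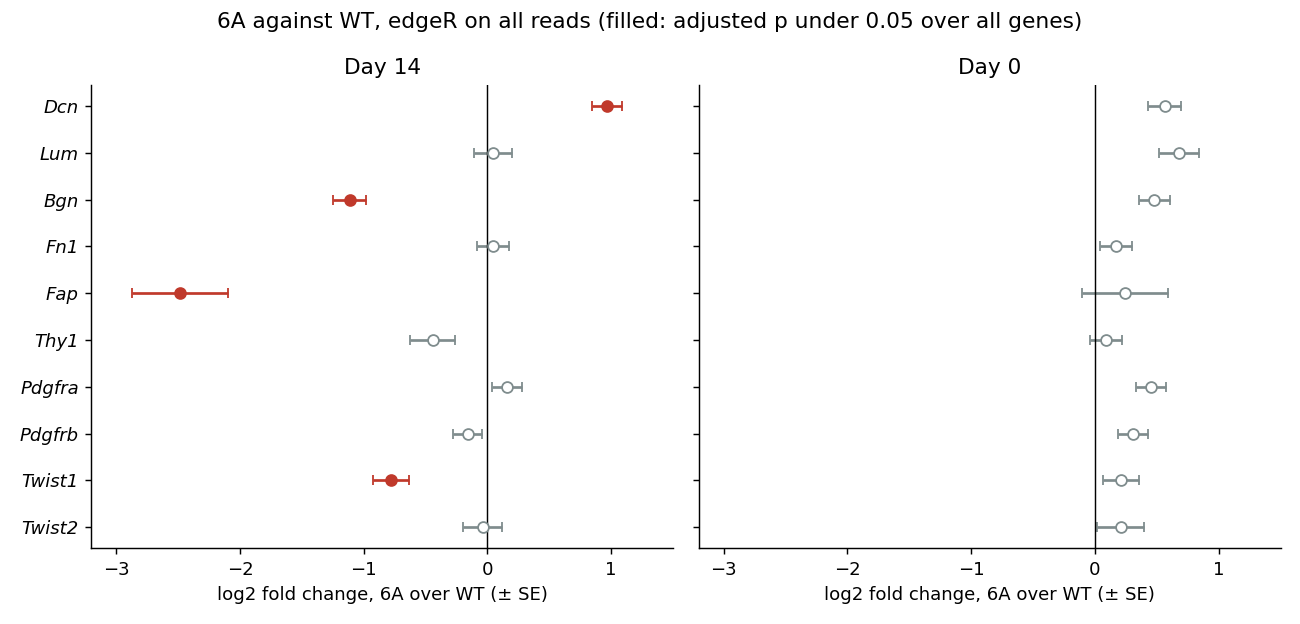
Log2 fold change of 6A over WT ± SE for the 10 genes at day 14 and at day 0, with filled points for genes called over all genes. At day 14 Dcn is above 0 and Bgn, Fap and Twist1 are below it; at day 0 all 10 open points are above 0.

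The promoter windows of 4 of the 10 genes were found in the RefSeq table (GRCm38.p6), each from 250 bases before to 50 after the start. These are all the windows found for the 10 genes, not a choice by level. Twist1 and Bgn were called lower in 6A at day 14, and Twist2 and Pdgfra were not called. E-boxes were marked because Twist proteins bind them. A link between these sequences and the 6A differences was not tested. Capitals mark the E-box motif CANNTG, on both strands, and a 16-base run, TCCTGACAGCTATTTA. The windows are Twist1 at chr12:33957421-33957720, Bgn at chrX:73483351-73483650, Twist2 at chr1:91801211-91801510 and Pdgfra at chr5:75152001-75152300, all on the plus strand.
Twist1: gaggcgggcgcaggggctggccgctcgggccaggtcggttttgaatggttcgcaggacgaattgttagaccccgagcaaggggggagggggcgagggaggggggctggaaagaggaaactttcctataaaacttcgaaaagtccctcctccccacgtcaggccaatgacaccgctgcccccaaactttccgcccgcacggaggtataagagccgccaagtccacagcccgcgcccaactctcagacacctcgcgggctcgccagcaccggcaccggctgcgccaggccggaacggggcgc
Bgn: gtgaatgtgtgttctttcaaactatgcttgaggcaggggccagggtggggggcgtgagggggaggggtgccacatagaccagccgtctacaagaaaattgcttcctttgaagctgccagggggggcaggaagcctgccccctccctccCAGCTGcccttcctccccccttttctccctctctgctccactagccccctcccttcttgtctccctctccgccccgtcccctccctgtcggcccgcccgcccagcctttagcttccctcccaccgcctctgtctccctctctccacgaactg
Twist2: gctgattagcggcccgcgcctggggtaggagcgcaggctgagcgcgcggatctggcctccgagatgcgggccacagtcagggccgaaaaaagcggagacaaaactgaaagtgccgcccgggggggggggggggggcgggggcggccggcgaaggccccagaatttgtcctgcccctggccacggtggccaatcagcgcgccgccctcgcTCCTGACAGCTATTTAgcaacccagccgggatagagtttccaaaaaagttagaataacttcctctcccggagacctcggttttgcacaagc
Pdgfra: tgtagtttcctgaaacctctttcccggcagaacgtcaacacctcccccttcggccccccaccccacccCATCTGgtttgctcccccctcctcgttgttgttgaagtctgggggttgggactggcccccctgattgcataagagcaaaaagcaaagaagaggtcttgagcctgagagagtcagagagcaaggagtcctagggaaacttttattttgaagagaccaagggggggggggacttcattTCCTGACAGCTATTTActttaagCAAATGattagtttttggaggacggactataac

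The 16-base run was the longest that any pair of these windows shared, and it was sought after the windows had been compared. It began 41 bases before the RefSeq start in Twist2 and 6 bases before it in Pdgfra, where it ran across that start. Its orientation was the same in both. The gene start given above for Pdgfra, chr5:75152292, differs and lies downstream of the run and of both E-boxes of that window. Distances here are from the RefSeq start. The run was in no other window of the 32851 of that length searched on both strands, so that 0.00609% of windows held it. CANNTG was in 72.3% of windows. It occurred in Bgn once, 102 bases before the start, in Pdgfra 182 bases before and 17 bases after it, and in neither Twist window. These are matches of letters and say nothing of binding.

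At day 0, 0 of the 10 genes were called between 6A and WT, where 1.58% of all genes tested were called. Without adjustment, edgeR gave p under 0.05 for 5 of them, Dcn, Lum, Bgn, Pdgfra and Pdgfrb. DESeq2 called 1, Lum, the fit with no filter on low counts 3, Dcn, Lum and Bgn, the fit with a replicate block 4, Dcn, Lum, Bgn and Pdgfra, and the fit without WT replicate 1 of day 0 called 2, Dcn and Lum. Both 6A libraries stood above both WT libraries for all 10, as they did for 24.9% of all genes tested. The median log2 fold change was 0.27, against 0.01 over all genes tested. The mean Y-linked sum of the 6A libraries was 1.6 times that of the WT libraries at day 0, and the same ratio was 1.07 to 1.59 for the 10 genes. The part of feeder RNA in these differences was not tested.

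In all reads, Dcn and Lum rose most and Thy1 fell most on differentiation in both genotypes. Between day 14 and day 0, 6 of the 10 genes were called higher and 4 lower in 6A, where 71.9% of all genes tested were called, 35.4% higher and 36.6% lower. In WT, 8 were higher and 2 lower, where 75.2% were called, 38.4% higher and 36.8% lower. Dcn rose by 3.69 ± 0.13 in 6A and 3.28 ± 0.14 in WT, and Lum by 2.07 ± 0.16 in 6A and 2.702 ± 0.165 in WT. Pdgfrb, Twist2, Pdgfra and Fn1 also rose in both, by 0.65 to 1.62 in 6A and 0.78 to 2.04 in WT. Thy1 was -4.67 ± 0.16 in 6A and -4.13 ± 0.16 in WT, and Bgn was -2.41 ± 0.13 in 6A and -0.82 ± 0.13 in WT. The part of feeder RNA in the day 0 levels was not tested. Read from CAST alone, Bgn rose by 3.93 in 6A and 5.43 in WT, and Pdgfra by 6.524 in 6A and 6.255 in WT. Dcn and Lum gave almost no CAST reads, so this ranking holds for all reads only.

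Fap and Twist1 went opposite ways in the genotypes in all reads. Fap was -1.48 ± 0.42 in 6A (edgeR adjusted p = 0.00583) and 1.25 ± 0.32 in WT (edgeR adjusted p = 0.00316). Twist1 was -0.35 ± 0.15 in 6A (edgeR adjusted p = 0.0422) and 0.64 ± 0.15 in WT (edgeR adjusted p = 0.00126). The Twist1 call in 6A was lost under 7 alternatives, and that of Fap in 6A without 6A replicate 2 of day 14.

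The interaction compares the size of the 6A to WT difference between the days, with negative values where it is lower at day 14. It was called lower for 3 of the 10 genes and higher for 0, where 4.74% of all genes tested were called, 3.34% in that lower direction. They were Bgn at -1.60 ± 0.18 (edgeR adjusted p = 0.000396), Fap at -2.73 ± 0.53 (edgeR adjusted p = 0.00914) and Twist1 at -0.99 ± 0.21 (edgeR adjusted p = 0.0142). Leaving out 6A replicate 2 of day 14 ended the calls of Fap and Twist1, leaving out WT replicate 2 of day 14 that of Fap, and leaving out WT replicate 1 of day 14 that of Twist1. Lum, at -0.64 ± 0.22, and Dcn, at 0.40 ± 0.18, were not called. The day 0 levels enter these 3 values, beside the Y-linked sums given above, and the part of feeder RNA in them was not tested.

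Per kilobase of merged exon, the order of levels at day 14 began with Fn1 at 348 CPM per kilobase in 6A and 337 in WT, then Lum at 121 in 6A and 117 in WT. In 6A, Dcn came next at 66.1, ahead of Pdgfrb at 25.0, while Bgn, Pdgfra and Twist1, between 15.7 and 14.3, had overlapping libraries. In WT, Bgn and Dcn stood together at 33.9, followed by Pdgfrb at 28.0 and Twist1 at 24.6. Twist2, Thy1 and Fap closed the order in both, with Fap at 0.119 in 6A and 0.674 in WT. At day 0, Fn1 was followed by Bgn and Thy1, at 83.3 and 62.0 CPM per kilobase in 6A and 59.7 and 58.1 in WT, where their libraries overlapped.

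Allele reads could be compared only where both parental genomes were read nearby. Around Dcn, Lum, Twist1, Twist2, Pdgfrb and Fn1, the median 129 share of the nearest 30 genes on each side was 98.8% to 99.2% at day 14, so these 6 regions gave almost no CAST reads and alleles cannot separate sources there. Such shares were not local. The median over a whole chromosome at day 14 was 97.1% or more on every autosome except 5, 7, 8, 9 and 13. On those it was 40.75% to 52%. Around Pdgfra, Thy1 and Fap the median of the neighbours was 50.5%, 48.9% and 53.3%, and around Bgn on the X it was 12.5%, against 51.0% at day 0. The neighbours of Fap were mixed, with quartiles of 49.2% and 96.5% at day 14 and a median of 80.5% at day 0. Fap had 8 to 33 allele reads in a group and was not tested by allele.

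Pdgfra was read from both alleles at day 14, with a 129 share of 55.4% and 50.7% in 6A and 50% and 48.4% in WT. At day 0 the share was 98.6% and 98.9% in 6A and 97.4% and 98.4% in WT, with 4 or 5 CAST reads in each library, although the neighbouring genes had a median of 55.9%. CAST reads of Pdgfra stood at 25.3 and 29.1 CPM in 6A and 22.8 and 28.9 CPM in WT at day 14, and at 0.427 and 0.267 CPM in 6A and 0.494 and 0.353 CPM in WT at day 0. Its 129 reads stood at 31.5 and 29.8 CPM in 6A and 22.8 and 27.1 CPM in WT at day 14, and at 29.6 and 23.4 CPM in 6A and 18.3 and 22.1 CPM in WT at day 0. CAST reads of Pdgfra thus differed between the days far more than its 129 reads did. The 129 to CAST ratio was higher at day 0 by 6.05 ± 0.34 in 6A (edgeR adjusted p = 1.0e-68) and by 5.69 ± 0.36 in WT (edgeR adjusted p = 4.8e-55). Both p-values rest on a spread pooled over the genes of the ratio fit, and on 4 or 5 CAST reads a library at day 0.

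**Figure D3:**
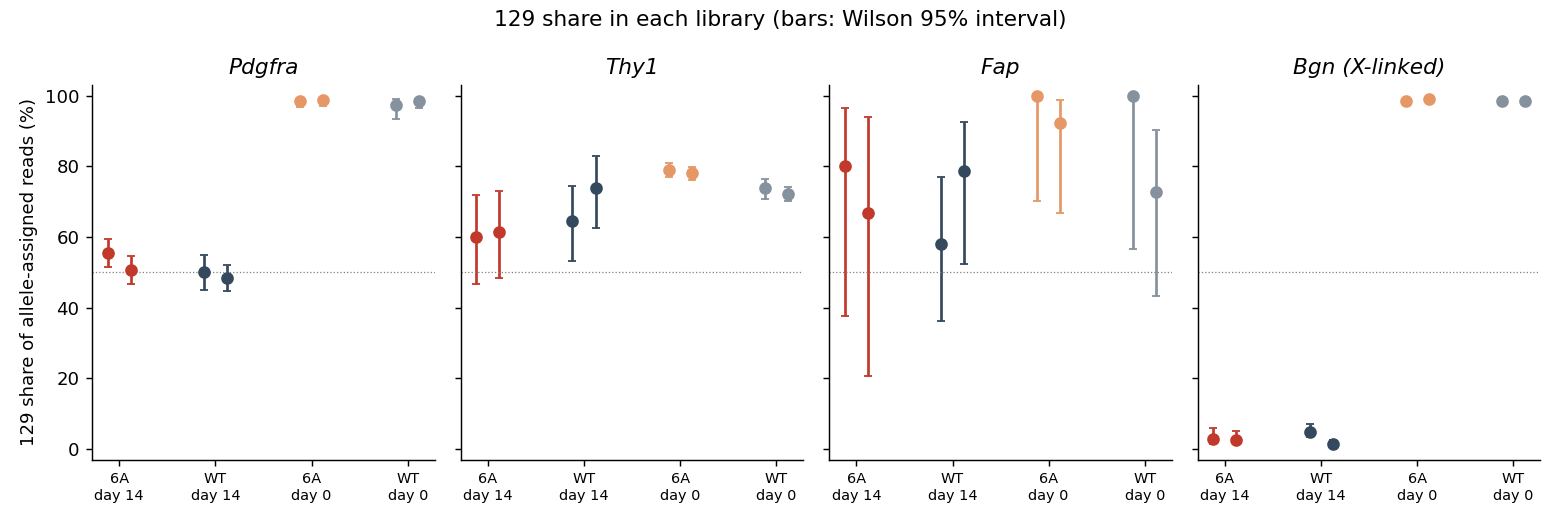
Share of allele-assigned reads given to 129 (percent, 1 point per library with its Wilson 95% interval) for Pdgfra, Thy1, Fap and Bgn, 6A and WT at day 14 and day 0. Pdgfra stands near 50% at day 14 and above 97% at day 0, Bgn below 5% and above 98%, Thy1 between 60.0% and 78.9% throughout, and the intervals of Fap are wide.

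Bgn gave nearly all of its allele reads to CAST at day 14 and to 129 at day 0. The 129 share was 2.92% and 2.68% in 6A and 4.88% and 1.57% in WT at day 14, against 98.5% and 98.9% in 6A and 98.3% and 98.5% in WT at day 0. CAST reads were 22.5 and 28.1 CPM in 6A and 58.8 and 59.6 CPM in WT at day 14, and 2.22 and 1.74 CPM in 6A and 1.73 and 1.62 CPM in WT at day 0. Read from CAST alone, Bgn therefore rose on differentiation, by 3.93 ± 0.24 in 6A (edgeR adjusted p = 1.1e-13) and 5.43 ± 0.25 in WT (edgeR adjusted p = 4.9e-16), where all reads had shown a fall.

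Thy1 kept reads of both alleles at both days, and its fall was seen in either set. The 129 share was 60.0% and 61.4% in 6A and 64.5% and 73.9% in WT at day 14, and 78.9% and 78.1% in 6A and 73.7% and 72.2% in WT at day 0. CAST reads were 2.13 and 2.12 CPM in 6A and 3.13 and 1.42 CPM in WT at day 14, and 30.5 and 28.3 CPM in 6A and 31.3 and 37.0 CPM in WT at day 0. In CAST reads the fall was -3.54 ± 0.26 in 6A (edgeR adjusted p = 4.7e-12) and -3.71 ± 0.26 in WT (edgeR adjusted p = 1.9e-12). Its 129 to CAST ratio was higher at day 0 in 6A, by 1.24 ± 0.34 (edgeR adjusted p = 0.00194), a call lost without 6A replicate 1 of day 14, and was 0.28 ± 0.32 in WT (edgeR adjusted p = 0.698).

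**Figure D4:**
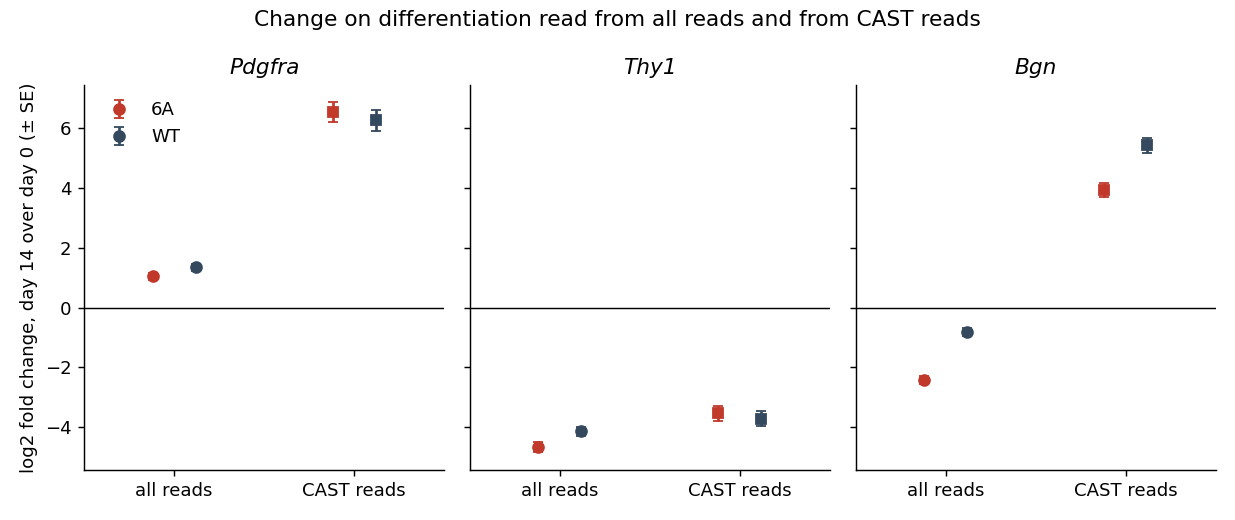
Log2 fold change of day 14 over day 0 ± SE from all reads (circles) and from CAST reads (squares) for Pdgfra, Thy1 and Bgn, in 6A and WT. Bgn lies below 0 in all reads and above 0 in CAST reads, Pdgfra rises more in CAST reads, and Thy1 falls in both.

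Across the fit on CAST reads, Bgn, Pdgfra and Thy1 were each called between day 14 and day 0 in both genotypes, where 62.3% of all genes tested were called in 6A and 64.0% in WT. For the 129 to CAST ratio between the days, all 3 were called in 6A, where 20.0% of all genes were called, and Bgn and Pdgfra in WT, where 16.9% were called. The ratio shares here and below are over all genes tested. Those include genes of chromosomes read almost only from 129, unlike the 3, so the shares are not a like background for them. Dcn, Lum, Pdgfrb and Fn1 reached the minimum of allele reads for one fit or both, but almost all of those reads were 129, so they are not counted in the allele comparisons. Reads given to 129 at day 0 can come from the 129 alleles of the line or from feeders, whose strain the labels do not name, and these cannot be told apart by allele alone.

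Between genotypes, CAST reads gave the same side as all reads for Bgn at day 14, -1.25 ± 0.18 (edgeR adjusted p = 0.000135), where 1 of the 3 genes was called and 2.30% of all genes tested. CAST reads are part of all reads, and the 129 share of Bgn was then only 2.78% in 6A and 2.93% in WT. Its CAST value is thus no separate test of the day 14 difference. Pdgfra, at 0.03 ± 0.20, and Thy1, at -0.05 ± 0.33, were not called. At day 0, edgeR called 0 of the 3 in CAST reads, 0 also without adjustment, where 0.342% of genes were called. Bgn was 0.25 ± 0.31, Pdgfra -0.23 ± 0.63 and Thy1 -0.22 ± 0.20. Differences of the size seen in all reads, which for Thy1 was 0.09, were thus not detectable at this depth for any of the 3. The 6A minus WT ratio of 129 to CAST reads was called by edgeR for 0 of the 3 at day 0, with 0.173% of all genes called, and 1 passed without adjustment, Thy1 at 0.44 ± 0.17 (edgeR adjusted p = 0.518). At day 14 edgeR called it for 0 of the 3, 0 also without adjustment, with 0.0494% called. In the interaction of CAST reads edgeR called 0 of the 3, 1 without adjustment, with 0.179% of genes called, and Bgn stood at -1.50 ± 0.36 (edgeR adjusted p = 0.0921).

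Related genes at day 14 moved in mixed directions, and their lists were drawn up with earlier results known. Each count is given with its share of the list, beside the 13.6% of all genes tested that were called at day 14, 5.33% higher and 8.31% lower. Of 8 small leucine-rich proteoglycans tested outside the members, 2 were higher and 0 lower (25% called), with a median of 0.17. Ogn, osteoglycin, had 96.3 and 147 CPM in 6A and 59.2 and 62.6 CPM in WT (0.995 ± 0.218, edgeR adjusted p = 0.0120), and Fmod, fibromodulin, had 75.2 and 75.4 CPM in 6A and 48.9 and 47.9 CPM in WT (0.64 ± 0.19, edgeR adjusted p = 0.0472). Of 20 genes that build chondroitin and dermatan sulfate, the chains of decorin and biglycan, 2 were higher and 2 lower (20% called), with a median of -0.07. Csgalnact1, which starts a chondroitin chain, was 1.32 ± 0.16 (edgeR adjusted p = 0.000108), and the chain polymerases Chsy3 and Chsy1 were -0.90 and -0.46.

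Of 31 other mesenchyme and epithelial-mesenchymal transition factors, 0 were higher and 7 lower at day 14 (22.6% lower, against 8.31% of all genes), with a median of -0.32, against 0.00 over all genes. Foxd1, of stromal progenitors, had 1.06 and 0.772 CPM in 6A and 8.35 and 7.43 CPM in WT, 8.48-fold lower. Foxc1, of head and cardiovascular mesenchyme, was -1.58 ± 0.16, and Sox9, of cartilage, was -1.28 ± 0.21. In the interaction 9 of the 31 were lower and 0 higher (29.0% lower, against 3.34% of all genes). At day 0, 2 of the 31 were higher, Zeb1 at 0.65 ± 0.12 and Zeb2 at 0.61 ± 0.14 (6.45% called, against 1.58% of all genes in either direction). The Zeb1 call was lost without either 6A library of day 0, and that of Zeb2 without any 1 of the 8 libraries and with another scaling; both were lost when only the day 0 groups were fitted. Of 7 partners and Id inhibitors of Twist proteins 1 was lower at day 14, Id4, at -1.34 ± 0.19, and 0 higher, 14.3% called and so near the share of all genes.

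Of 7 PDGF ligands and related receptors tested, 1 was higher and 2 lower at day 14 (42.9% called). The ligand gene Pdgfc had 38.5 and 39.1 CPM in 6A and 65.5 and 69.3 CPM in WT (-0.80 ± 0.15, edgeR adjusted p = 0.00216), and Pdgfrl was -0.95 ± 0.19. Csf1r, the receptor of macrophages, was 1.197 ± 0.135. Of 20 fibronectin receptors and matrix assembly genes, 1 was higher, Sdc4 at 0.58, and 4 were lower, among them Itga4 at -0.998 ± 0.144 and Itgb6 at -2.58 ± 0.32 (25% called). Of 16 peptidases and inhibitors related to Fap, 4 were higher and 1 lower (31.2% called). Dpp4 itself had 23.0 and 20.6 CPM in 6A and 10.1 and 9.41 CPM in WT, at 1.16 ± 0.17 the opposite side from Fap, and Timp3 was 0.90 ± 0.11.

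Of 15 mesenchymal surface and cytoskeleton markers, 3 were higher at day 14, among them S100a4 at 0.83 and Pdpn at 0.48, and 1 was lower, Gpx3 at -0.90 (26.7% called). Of 21 other fibroblast matrix genes, 5 were higher and 6 lower (52.4% called). Eln, elastin, had 19.7 and 18.6 CPM in 6A and 93.2 and 73.5 CPM in WT (-2.12 ± 0.16, edgeR adjusted p = 2.7e-06), Igfbp3 was 1.25 ± 0.13 and Igfbp5 -1.04 ± 0.11. Of 8 collagens 0 were higher and 1 lower, Col6a1 at -0.54, 12.5% called and so near the share of all genes. At day 0, Lox, a crosslinking enzyme, was 0.63 ± 0.11, Postn 0.53 ± 0.12, Timp3 0.62 ± 0.11, Cdh11 0.53 ± 0.11 and Dsel 0.69 ± 0.14 higher, and Mcam was -0.52 ± 0.11. Each of these 6 day 0 calls was lost on leaving out at least 1 library, as were the day 14 calls of Ogn, Fmod, Chsy1, Chsy3, Sdc4, S100a4, Pdpn, Gpx3 and Col6a1.

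Markers of other cell types also differed at day 14. The counts below stand beside the 5.33% of all genes tested that were called higher and the 8.31% called lower. The summed level of 8 cardiac markers was 72.9 and 69.8 CPM in 6A and 632 and 645 CPM in WT, with 8 of 8 lower. Mural and smooth muscle markers summed to 1631 and 1532 CPM in 6A and 2465 and 2082 CPM in WT, with 6 of 10 lower and none at 0. Neural markers summed to 124 and 104 CPM in 6A and 269 and 275 CPM in WT, with 8 of 10 lower. In the other direction, endothelial markers summed to 429 and 444 CPM in 6A and 294 and 307 CPM in WT, with 4 of 9 called higher. Macrophage and blood markers summed to 292 and 291 CPM in 6A and 117 CPM in both WT libraries, with 7 of 8 higher. Extraembryonic endoderm markers, at 1075 and 1176 CPM in 6A and 959 and 862 CPM in WT, had 3 of 12 higher. Epithelial markers, at 998 and 971 CPM in 6A and 1194 and 1095 CPM in WT, had 2 of 6 lower. The part of these cell types in the values of Dcn, Bgn, Fap, Twist1 and Thy1 was not tested.

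Among 13660 genes, the one whose centred log2 profile over the 8 libraries lay nearest to each of the 10 was taken as a description. The closest match was Lpgat1 to Pdgfra, at a distance of 0.153, followed by Plxna1 to Fn1 at 0.168, Spsb1 to Twist2 at 0.214 and Fstl1 to Pdgfrb at 0.217. Twist2 and Pdgfrb were each other's nearest of the 10, at 0.278. The other nearest genes were Fank1 for Twist1, Ulk2 for Lum, H2-Eb1 for Bgn, P2ry6 for Dcn, Pcdhac2 for Fap and Cnpy1 for Thy1, the farthest at 0.639.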

How the data were processed

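RNA was depleted of ribosomal RNA and sequenced from directional libraries as pairs of 150 bases, per the labels' protocols. The submitters' processing notes name cutadapt 1.4.2, STAR 2.7.10a and mm10. The counting tool, its strand setting, the annotation and the assignment to alleles are not stated in the sources; reads of antisense genes annotated over Twist2, Pdgfra and Fn1 may be included. The authors deposited raw counts per gene: all reads, CAST reads and 129 reads. Genes kept by filterByExpr were fitted over all 8 libraries with edgeR 4.0.16 (TMM, robust quasi-likelihood, 4 residual degrees of freedom, R 4.3.3). CAST reads (6138 genes) and the 129 to CAST ratio within libraries (12155 genes averaging 10 or more allele reads) were fitted likewise, and every p was adjusted by Benjamini-Hochberg. In the ratio fit the p-values follow normal tails of the value over its SE. They rest on a spread pooled over genes, not on that of the 2 libraries of a group for the gene itself. With 2 libraries against 2, an exact permutation test cannot go below p = 0.333. Exon lengths and positions are from GENCODE mouse release 21. The fits on all reads and on the ratio were tested on simulated counts, and the fit on CAST reads was not. The simulations used the same spread for every gene and kept 129 shares away from the extremes. They thus do not cover shares such as those of Bgn, or of Pdgfra at day 0. Alternatives were another scaling, no filter on low counts, DESeq2 1.42.0, a replicate block, a fit of only the 2 groups compared, a fold threshold, library sizes of all reads for the CAST fit, a minimum of 30 allele reads for the ratio and leaving out each library. Reading CAST reads between the days, and counting allele calls only where neighbouring genes were read from both alleles, were chosen after seeing the data. The text names all 10 members, the nearest gene of each, Hnrnpk, and from each list up to 3 genes by smallest adjusted p at day 14 and up to 2 called at day 0. Members and lists were chosen with earlier results of these data known. The replicate numbers were not taken as pairs: deviations of equal numbers correlated at 0.002 to 0.19, and the labels name no shared batch. Wilson 95% intervals and floors cover counting error only.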

Additional observations from a re-analysis of the deposited data

Results flagged for a closer look

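In all reads, the 6A to WT difference changed between the days for 3 of the 10 genes. The test was that of the change itself, the interaction of genotype and day on the log2 scale. The day 0 levels enter it, and the part of feeder RNA in them was not tested. Bgn gave -1.60 (edgeR adjusted p = 0.000396), being lower in 6A at day 14, with the libraries apart, and 0.48 higher without a call at day 0. In CAST reads its interaction was -1.50 ± 0.36 and not called (edgeR adjusted p = 0.0921). At day 0 its 129 share was 98.7% in 6A and 98.4% in WT, where its neighbours had a median of 51.0%. Fap gave -2.73 (edgeR adjusted p = 0.00914), from 9 and 5 counts in 6A and 31 and 51 counts in WT at day 14. Twist1 gave -0.99 (edgeR adjusted p = 0.0142), with 25.2 and 21.3 CPM in 6A against 42.7 and 37.5 CPM in WT at day 14. The calls of Fap and Twist1 did not hold on leaving out some single libraries, as given above.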

How the results depend on the processing

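The day 14 calls of Dcn, Bgn, Fap and Twist1 kept their direction and stayed called under all 13 alternatives on all reads, and 2 of them passed when a log2 fold change over 1 was asked as well. At day 0 the 0 calls became 3 with no filter on low counts (Dcn, Lum, Bgn), 1 with DESeq2 (Lum), 4 with the replicate block (Dcn, Lum, Bgn, Pdgfra) and 0 to 2 on leaving out a library (2, Dcn and Lum, without WT replicate 1). The 3 interaction calls became 1 to 4 on leaving out a library, and the 0 in CAST reads 1 with the replicate block and 0 to 1 on leaving out a library. The replicate block changed no other call of the 10 genes. Some values that were not called crossed 0. Twist2 at day 14 was 0.017 with no filter and -0.19 to 0.12 on leaving out a library, where Lum ran from -0.015 to 0.10 and Fn1 from -0.037 to 0.12, and the Fn1 interaction from -0.29 to 0.028. In CAST reads between genotypes, Pdgfra ran from -0.53 to 0.080 at day 0 and -0.20 to 0.33 at day 14, and Thy1 from -0.48 to 0.47 at day 14. The Thy1 ratio between the days in WT ran from -0.070 to 0.57. The causes were not tested. Over all genes, calls ran from 23 to 567 at day 0 (244 as reported), 982 to 2776 at day 14 (2109) and 280 to 1018 in the interaction (733). Depth limits Fap, Thy1 at day 14 and the CAST reads of Pdgfra at day 0.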
